A study of Rattus norvegicus with 58 samples.

Results

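The report covers 3 transcripts of skeletal muscle that were read in RNA from rat synovium, the lining tissue of the joint. They were taken by identifier and are 3 of 16879 genes in the deposited table: ENSRNOG00000017786, named Acta1, ENSRNOG00000016837, named Ckm, and ENSRNOG00000004583, named Mb. The names were taken as given with the identifiers and were not checked against an annotation here. They were followed in every library as a gauge of muscle that may come along when synovium is dissected.

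The 58 libraries fall into 10 groups. Female DA/OlaHsd rats aged 6 to 8 weeks received 250 µl of pristane, an oil that induces arthritis (PIA), and time 0 was the day after both rear limbs had reached a score of at least 3. Arthritic rats received RTD-1, a cyclic defensin peptide, at 5 mg/kg in saline under the skin for 1, 3 or 5 days (4, 8 and 8 libraries), or saline for the same times (4, 8 and 8 libraries), and 4 libraries came from arthritic rats with neither. Healthy rats without arthritis received 5 mg/kg RTD-1 for 3 or 5 days (5 libraries each), and 4 libraries came from naive rats. Strain, sex and age are given in the labels for the arthritis model only. A group of healthy rats given saline was not analysed here. Reads were 75 nt long, and a library held between 464693 and 7716834 reads in genes. Every library of the healthy RTD-1 groups was deep, with 4437281 to 7716834 reads, against 1573925 to 2396818 reads in the naive group. In the other groups, 3 saline libraries were of like depth, with 4512069 to 6415288 reads. The labels do not tie libraries to animals, so a p-value reflects how much libraries vary within groups, which may be technical in part. In the limma fit this spread is pooled over all 10 groups and is not that of the groups compared alone. The labelled tissue could not be checked against its markers, because no table used here pairs the identifiers with gene names.

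Skeletal muscle fibres hold these 3 transcripts in abundance. Acta1 encodes the skeletal alpha-actin of the thin filament, Ckm the muscle creatine kinase that restores ATP from phosphocreatine, and Mb myoglobin, the haem protein that stores oxygen and is richest in oxidative fibres and heart. Healthy synovium is made of fibroblasts, macrophages, vessels and fat and borders on tendon and muscle in the limb. In bulk RNA, fewer muscle fibres in a sample and less of these transcripts per fibre cannot be told apart.

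The promoters are shown because muscle genes share short motifs there. All 3 transcripts were read in 10 of the 58 libraries and Acta1 alone in 23, and a link between the motifs and these levels was not tested. Each window runs from 250 bases upstream to 50 downstream of the start, 5′ to 3′ on the gene's strand, from RefSeq on GRCr8, where all 3 genes matched by symbol. Acta1 lies at chr19:68784145-68784444 on the minus strand, Ckm at chr1:88189211-88189510 on the plus strand and Mb at chr7:110647693-110647992 on the minus strand. Capitals mark E-boxes (CANNTG), the motif that myogenic factors such as MyoD bind, and in Acta1 also the CArG box, the motif bound by serum response factor.
Acta1: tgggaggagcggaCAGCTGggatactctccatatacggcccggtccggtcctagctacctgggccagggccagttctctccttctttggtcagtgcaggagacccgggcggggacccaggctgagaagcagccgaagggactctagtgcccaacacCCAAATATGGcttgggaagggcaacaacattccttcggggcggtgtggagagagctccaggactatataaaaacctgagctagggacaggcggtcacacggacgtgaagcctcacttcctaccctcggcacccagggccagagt
Ckm: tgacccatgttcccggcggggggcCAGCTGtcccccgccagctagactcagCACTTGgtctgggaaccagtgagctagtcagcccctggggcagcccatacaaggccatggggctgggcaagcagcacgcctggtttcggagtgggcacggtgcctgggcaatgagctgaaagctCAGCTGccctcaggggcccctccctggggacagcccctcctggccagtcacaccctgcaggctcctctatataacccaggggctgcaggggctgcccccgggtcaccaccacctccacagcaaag
Mb: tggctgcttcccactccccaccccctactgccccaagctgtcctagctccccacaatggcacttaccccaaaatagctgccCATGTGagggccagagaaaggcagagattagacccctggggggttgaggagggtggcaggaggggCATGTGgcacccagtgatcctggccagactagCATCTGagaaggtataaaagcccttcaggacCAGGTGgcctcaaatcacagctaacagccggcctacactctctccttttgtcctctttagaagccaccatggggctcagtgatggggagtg
Both strands were searched for every motif, and every match of CATTCC or TATAAA in these windows lay on the gene's strand. E-boxes lay 237 bases upstream in Acta1, 226, 199 and 75 bases upstream in Ckm, and 169, 104, 72 and 41 bases upstream in Mb. This short motif stood in 72.1% of 33469 promoter windows of the same length. Its form CAGCTG, in 15.1% of windows, was the E-box of Acta1 and 2 of the 3 in Ckm, and none of the 4 in Mb had it. The CArG box of Acta1 began 94 bases upstream, and 1.64% of windows held one. CATTCC, the core of the M-CAT element, stood in Acta1 at 67 bases upstream and in 14.2% of windows. TATAAA stood in Acta1 at 29 and in Mb at 60 bases upstream, and in 14.2% of windows. A MEF2 site, present in 3.29% of windows, was not matched in any of the 3 windows. A match is a run of letters and was not tested for binding.

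Muscle transcripts were near 0 in most libraries and high in 1 of them. Replicate 3 of the arthritic rats given RTD-1 for 3 days held 1020 reads of Acta1, 90 of Ckm and 548 of Mb. These 1658 reads were 64.9% of the 2555 reads of the 3 genes in all 58 libraries. They were 0.0826% of the 2008366 reads in genes of that library (exact binomial 95% interval 0.0786% to 0.0866%, counting error only), or 826 CPM (reads per 1000000 reads in genes). Replicate 6 of the same group came next by CPM, at 56.0 CPM on 26 reads (15 of Acta1, 2 of Ckm and 9 of Mb). It was the shallowest library of the series with 464693 reads in genes, and deeper libraries held up to 166 reads of the 3 genes. The other 56 libraries had at most 28.7 and a median of 2.27 CPM. Replicate 3 stands apart from the rest of its group. The day 3 differences of this group in Acta1 from saline and from healthy rats are given with and without it. Comparisons that do not involve its group were not refitted with it alone left out, though its values enter their spread.

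At the depth of the median library (normalized reads), Acta1 in replicate 3 was at 1251, Ckm at 110.4 and Mb at 672.0 normalized reads. These levels were 24.8-fold, 9.29-fold and 22.2-fold those of the next highest library for each gene. The next highest library was replicate 6 for Acta1, at 50.5, and for Mb, at 30.3 normalized reads. For Ckm it was replicate 5 of the healthy rats given RTD-1 for 5 days, at 11.9, with replicate 6 at 6.73 normalized reads.

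In the other 6 libraries of the day 3 RTD-1 arthritic group, Ckm and Mb had no read, and Acta1 had 9 reads in replicate 1, 1 read in replicate 4 and none in the rest. All 3 genes were at 0 in 9 libraries of the series. All 9 were from arthritic rats and 4 of them from this group, and at their depths a count of 0 allows up to 1.07 to 3.21 CPM for each gene. All 3 genes were read in 10 libraries, and Acta1 alone was read in 23. Over all 58 libraries, Acta1 was at 0 in 10, Ckm in 41 and Mb in 39.

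**Figure D1:**
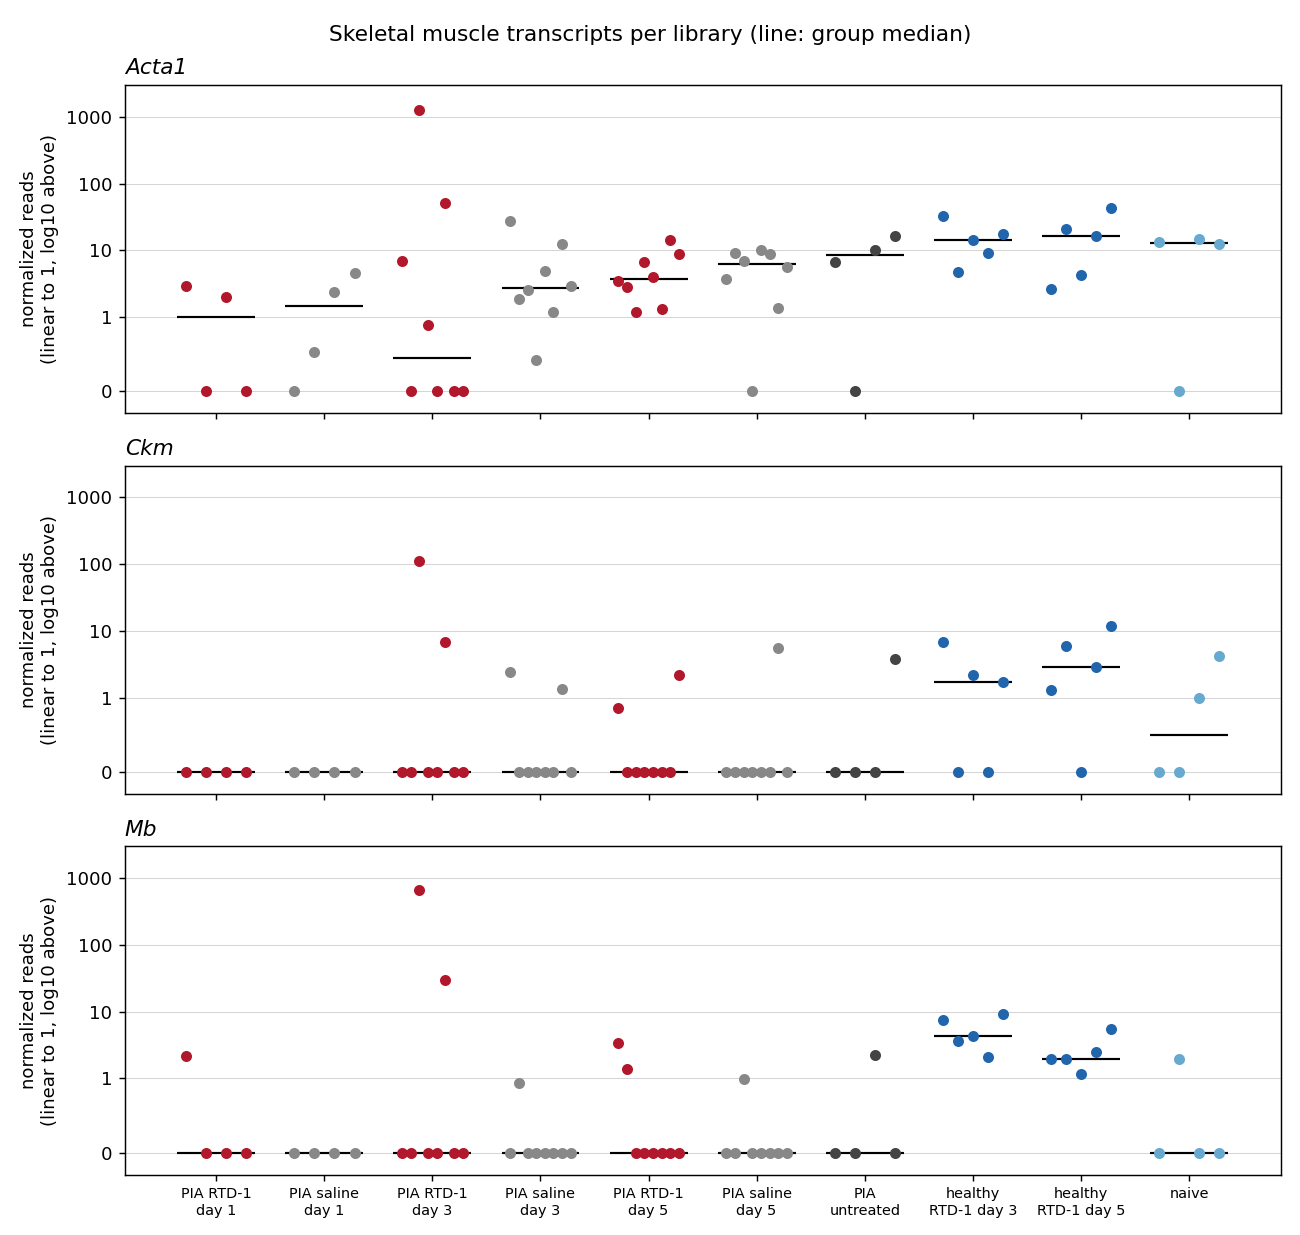
Normalized reads of Acta1, Ckm and Mb (vertical axis, linear up to 1 and log10 above) in each library, by group; a point is 1 library and the line is the group's median. In PIA RTD-1 day 3, 1 library lies at 1251, 110.4 and 672.0 normalized reads and 4 libraries lie at 0 for all 3 genes.

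Acta1, the thin filament actin, was read in the most libraries. Its coding sequence is very like those of cardiac and smooth muscle actin, and how reads that match several genes were counted is not given in the sources used here, so low levels of Acta1 are uncertain. Arthritic rats given RTD-1 for 1 day had 2.91, 0, 2.0 and 0 normalized reads of Acta1, against 0, 0.529, 2.36 and 4.52 in rats given saline for 1 day. The day 1 groups overlapped and rested on at most 4 reads in a library. At day 3 the lowest, median and highest of the 8 RTD-1 libraries were 0, 0.443 and 1251 normalized reads, against 0.422, 2.74 and 27.4 in the 8 saline libraries. At day 5 they were 1.17, 3.69 and 14.1 normalized reads in 8 RTD-1 libraries, against 0, 6.24 and 10.01 in 8 saline libraries. The arms overlapped at each time, and the day 3 RTD-1 arm held both the highest value and 4 of the 8 libraries at 0, while every day 3 saline library had at least 1 read.

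Arthritic rats with neither injection had 6.76, 0, 10.03 and 16.3 normalized reads of Acta1, against 13.3, 0, 15.0 and 12.5 in naive rats. Healthy rats given RTD-1 had 32.9, 4.66, 14.2, 9.22 and 17.4 normalized reads at day 3 and 2.63, 20.5, 4.30, 16.2 and 42.5 at day 5. These groups overlapped. Every healthy RTD-1 library held Acta1 and 1 naive library of 4 had none, but the healthy libraries were deeper. With deeper libraries thinned to 1500000 reads in genes, Acta1 was read in 5 of 5 healthy RTD-1 libraries at day 3 and 4 of 5 at day 5, against 3 of 4 naive libraries.

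Ranked by the mean of log2(normalized reads + 1), Acta1 was highest in healthy RTD-1 rats at day 3 (3.81 ± 0.96, SD, n = 5) and day 5 (3.65 ± 1.48, SD, n = 5). Untreated arthritic rats, at 2.63 ± 1.82, came after naive rats, at 2.90 ± 1.93 (SD, n = 4 each). In the 3 day arthritic groups the means were 2.48 ± 3.75 with RTD-1 and 2.26 ± 1.41 with saline, and in the 5 day groups, which lay between those, 2.36 ± 0.98 with RTD-1, against 2.41 ± 1.21 in the saline arm (SD, n = 8 each). Day 1 was lowest, with 0.89 ± 1.04 in RTD-1 and 1.21 ± 1.11 in saline rats (SD, n = 4 each). The ranges of neighbouring groups overlapped at every step of this order. On the linear scale the day 3 RTD-1 mean was 163.6 ± 440 normalized reads (SD, n = 8), and it was 8.31 ± 18.8 (SD, n = 7) without replicate 3 and 1.28 ± 2.72 (SD, n = 6) without replicates 3 and 6. The place of that group in the order thus rests on 2 libraries.

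Mb, the oxygen-binding haem protein, was read in all 10 libraries of healthy RTD-1 rats and in few others. At day 3 the healthy RTD-1 libraries held 7.62, 3.62, 4.32, 2.10 and 9.13 normalized reads of Mb, and at day 5 they held 1.97, 1.98, 1.17, 2.49 and 5.40, against 0, 1.92, 0 and 0 in naive libraries. The day 3 healthy values lay above the naive values as measured, but the 3 naive libraries at 0 allow up to 2.67 to 3.12 normalized reads, more than the lowest day 3 value. The day 5 values overlapped with 1 naive library. Means were 5.36 ± 2.92 at day 3 and 2.60 ± 1.63 at day 5 (SD, n = 5 each), against 0.480 ± 0.961 normalized reads in naive rats (SD, n = 4). Depth moved with this comparison. With the same thinning, the healthy RTD-1 libraries had 3, 2, 1, 1 and 6 reads of Mb at day 3 and 1, 1, 1, 3 and 2 at day 5, against 0, 2, 0 and 0 in naive libraries. At equal depth the groups thus overlapped at both days, and values this close to 1 read set no order. In the 42 arthritic libraries other than day 3 RTD-1 replicates 3 and 6, Mb was read in 6, at no more than 4 reads, and its highest level was 3.42 normalized reads. Mb had too few reads to pass the filter on low values and was not tested in the fit over all genes.

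Ckm, the muscle creatine kinase, was the least read of the 3, with 199 reads in all. Healthy RTD-1 libraries held 6.82, 0, 2.16, 0 and 1.74 normalized reads of Ckm at day 3 and 1.31, 5.94, 0, 2.90 and 11.9 at day 5, against 0, 0, 0.998 and 4.17 in naive libraries. These groups overlapped. The 42 arthritic libraries held 14 reads of Ckm in 6 libraries, with a highest level of 5.53 normalized reads, and none of the 8 day 1 libraries had a read. Ckm also failed the filter.

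The division of reads among the 3 genes does not scale with depth and was set side by side for 6 sets of libraries. In day 3 RTD-1 replicate 3, Mb took 33.1% of the reads of the 3 genes (exact binomial 95% interval 30.8% to 35.4%), Acta1 61.5% and Ckm 5.43%. Replicate 6 had a like division on few reads, with Mb at 34.6% (17.2% to 55.7%), Acta1 at 57.7% and Ckm at 7.69%. In the 42 other arthritic libraries pooled, Mb took 6.13% (3.31% to 10.3%) and Acta1 87.3% of 212 reads. The Mb intervals of both replicates lay above that of the pooled reads of the other arthritic libraries. Single libraries did not separate in this way: 6 of the 42 had a read of Mb, its share there was 12.5% to 44.4% of only 3 to 11 reads, and 4 of them lay above replicate 3.

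In healthy RTD-1 rats Mb took 22.6% (17.8% to 28.05%) at day 3 and 10.7% (7.62% to 14.5%) at day 5, against 4.08% (0.498% to 14.0%) in naive rats. The naive share rests on 2 reads of Mb in 1 library that had no other read of the 3 genes. Single healthy libraries spread widely, with Mb shares of 16.1% to 43.8% at day 3 and 6.98% to 33.3% at day 5. Ckm took 9.49% at day 3 and 18.5% at day 5 in healthy RTD-1 rats, against 10.2% in naive rats. The intervals cover counting error only, reads carry no molecular identifiers, and these shares were compared without a test. A longer transcript collects more reads, so the shares are not shares of molecules.

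**Figure D2:**
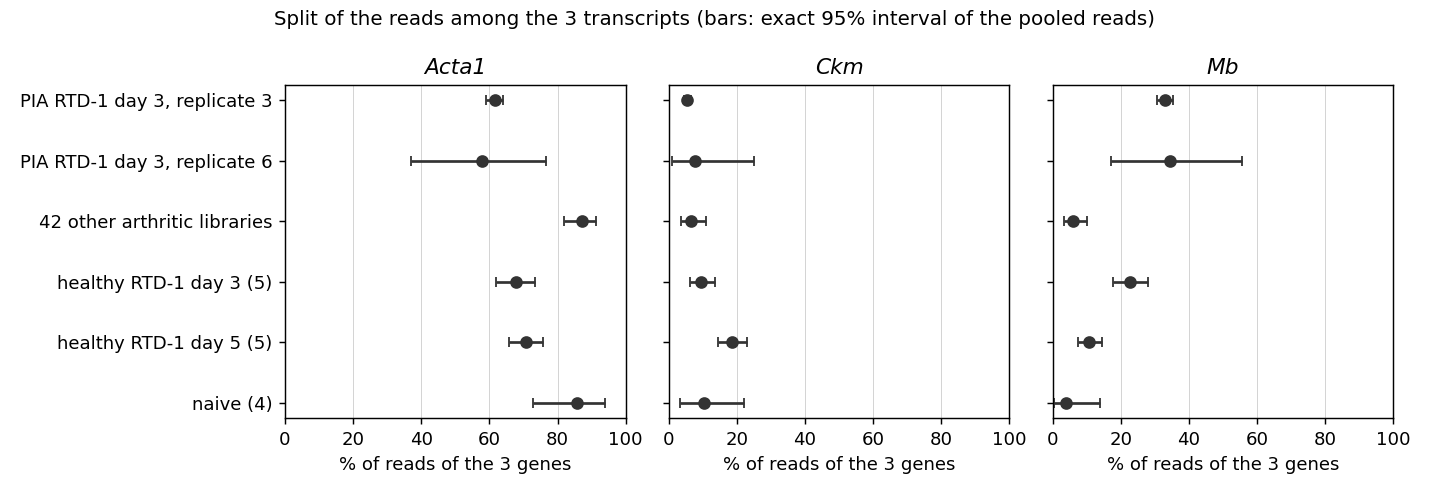
Percent of the reads of the 3 genes taken by Acta1, Ckm and Mb (horizontal axes), with exact binomial 95% intervals, in both day 3 RTD-1 arthritic libraries that stand apart, the 42 other arthritic libraries pooled, both healthy RTD-1 groups and the naive group. Mb takes 33.1% in replicate 3 and 34.6% in replicate 6, against 6.13% in the other arthritic libraries.

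Within the 4 arthritic groups of 8 libraries, 12 correlations between pairs of the 3 genes were computed on log2(normalized reads + 1). In the day 3 RTD-1 group, Acta1 and Mb had a Pearson r of 0.963 and a Spearman rho of 0.814 (exact permutation p = 0.0179 for each, n = 8). Ckm and Mb there had an r of 0.996 and a rho of 1, and Acta1 and Ckm an r of 0.960 and a rho of 0.814 (exact permutation p = 0.0179 for each, n = 8). That p is the smallest these values can give. After Benjamini-Hochberg adjustment over the 12 correlations it was 0.0536 for r and 0.0714 for rho, so none passed 0.05. The relation rests on replicates 3 and 6: without them Ckm and Mb are at 0 in every library and no r can be computed. In the day 3 saline group, Acta1 and Ckm had an r of 0.906 (exact permutation p = 0.0179, adjusted p = 0.0536, n = 8) and a rho of 0.764 (exact permutation p = 0.0357, adjusted p = 0.107, n = 8), on 3 reads of Ckm in 2 libraries. The other 8 correlations had r between -0.385 and 0.311.

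**Figure D3:**
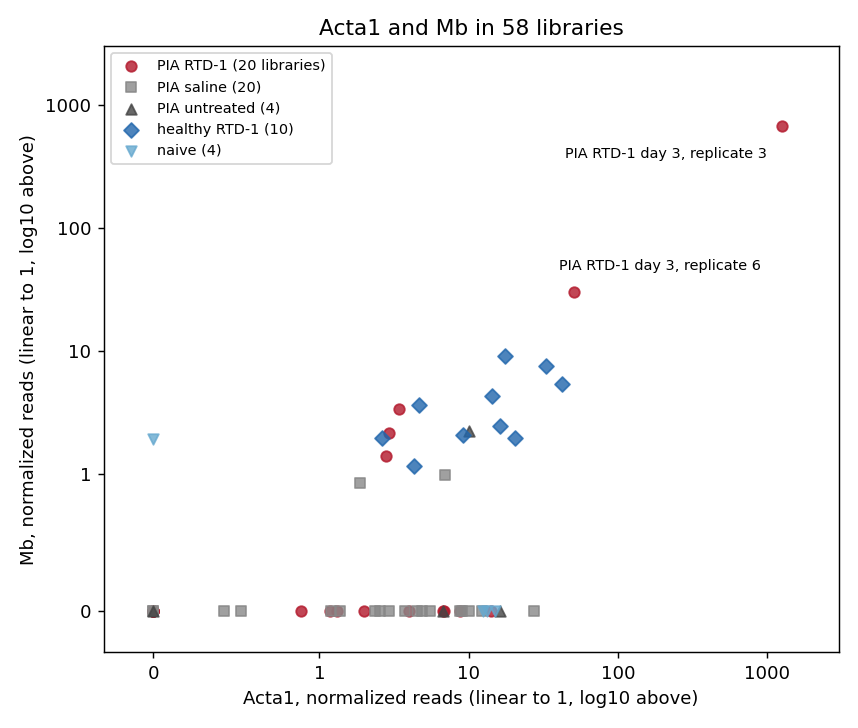
Normalized reads of Acta1 (horizontal axis) against Mb (vertical axis), both linear up to 1 and log10 above, in 58 libraries. A point is 1 library. Colours mark arthritic rats with RTD-1, saline or neither, healthy RTD-1 rats and naive rats, with all days merged. Day 3 RTD-1 replicates 3 and 6 lie above and to the right of the other 56, the healthy RTD-1 libraries all lie above 1 normalized read of Mb, and most other libraries lie at 0 for Mb.

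Other genes were picked for levels like those of the 3 over all libraries. High values in day 3 RTD-1 replicates 3 and 6 thus follow in part from that choice. The 2 genes outside the 3 whose group-centred levels were most like the mean of the 3 over 58 libraries were ENSRNOG00000022637, with a Pearson r of 0.89, and ENSRNOG00000006783, with an r of 0.86. These are descriptions over libraries that share depth and scaling, and the files do not pair these identifiers with names. ENSRNOG00000022637 had 676.9 normalized reads in replicate 3 and 20.2 in replicate 6, against a median of 0 and at most 11.2 in the other 56 libraries. ENSRNOG00000006783 had 5525 in replicate 3 and 279.2 in replicate 6, against a median of 38.4 and at most 99.5 normalized reads in the other 56. Without replicates 3 and 6, r was 0.65 for ENSRNOG00000022637 and 0.42 for ENSRNOG00000006783.

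In replicate 3, 27 genes had at least 10 reads and a normalized level at least 10-fold that of every other library. Acta1 and Mb were among them, and Ckm, at 9.29-fold, lay just short of that limit, which was set after the data had been seen. The 27 genes held 16058 reads, or 0.800% of the reads in genes of that library, and Acta1 and Mb made up 9.76% of those reads. Of the 25 genes that are not Acta1 or Mb, 20 had at least 1 read in replicate 6 and 12 had their next highest level there. Replicate 6 was the shallowest library, and 1 read there counts as 3.36 normalized reads. For genes near 0 elsewhere, few reads could thus place it next. By the same count 55 libraries had no such gene, replicate 3 of the healthy day 5 group had 1 and replicate 1 of the naive group had 10. The 10 genes of that naive library held 35260 reads, or 1.66% of its reads in genes, a larger share than in day 3 RTD-1 replicate 3. Whether these genes are muscle genes was not tested, since the files do not name them.

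Differences between groups were tested for 13062 genes, those that reached 10 normalized reads in 4 or more libraries. Acta1 passed this filter, with 17 libraries at that level, while Ckm and Mb each reached it in 2 libraries. Acta1 was not called in any of 15 comparisons with limma at an adjusted p under 0.05, and its adjusted p ran from 0.306 to 0.998. Log2 differences below are on the scale of log2(normalized reads + 1), which understates the change of a gene as low as this one.

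RTD-1 against saline in arthritic rats gave an Acta1 difference of -0.32 at day 1 (SE 1.30, 95% interval -2.94 to 2.30, limma adjusted p = 0.978, n = 4 each), where 0% of all genes tested were called. At day 3 the difference was 0.22 (SE 0.92, 95% interval -1.63 to 2.07, limma adjusted p = 0.972, n = 8 each), with 0.00766% of genes called. Without replicate 3 it was -0.89 (SE 0.73, limma adjusted p = 0.814), so its sign turned, and without replicates 3 and 6 it was -1.61 (SE 0.68, limma adjusted p = 0.603). Both libraries were singled out for their muscle reads, so leaving them out lowers the RTD-1 mean by construction. At day 5 it was -0.05 (SE 0.92, 95% interval -1.90 to 1.80, limma adjusted p = 0.998, n = 8 each), with 0% of genes called. These intervals are wide and include a change of 2-fold either way at each time. The RTD-1 difference at day 3 less that at day 1 was 0.54 (SE 1.60, limma adjusted p = 0.98; 0.00766% of genes called). Day 5 less day 3 was -0.27 (SE 1.30, limma adjusted p = 0.989; 0% called) and day 5 less day 1 was 0.27 (SE 1.60, limma adjusted p = 0.987; 0% called).

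Many genes were called between untreated arthritic and naive rats, and Acta1 was not among them. Untreated arthritic less naive rats differed by -0.26 for Acta1 (SE 1.30, 95% interval -2.88 to 2.35, limma adjusted p = 0.894, n = 4 each), where 39.3% of genes were called. Against untreated arthritic rats, Acta1 at day 5 differed by -0.28 with RTD-1 (SE 1.13, limma adjusted p = 0.90; 12.7% of genes called) and by -0.23 with saline (SE 1.13, limma adjusted p = 0.917; 8.37% of genes called). Against naive rats it differed at day 5 by -0.54 with RTD-1 (SE 1.13, limma adjusted p = 0.790; 25.6% of genes called) and by -0.49 with saline (SE 1.13, limma adjusted p = 0.801; 27.1% of genes called). These comparisons share control libraries.

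Healthy rats given RTD-1 differed from naive rats in Acta1 by 0.92 at day 3 (SE 1.24, 95% interval -1.57 to 3.40, limma adjusted p = 0.692) and by 0.75 at day 5 (SE 1.24, 95% interval -1.74 to 3.23, limma adjusted p = 0.734). Of all genes tested, 11.8% were called at day 3 (1456 higher and 90 lower) and 13.5% at day 5 (1684 higher and 80 lower). The healthy libraries were also the deeper ones, and the cause of this lean to higher values was not tested. With reads thinned to 1500000 per library, healthy RTD-1 rats had 38 reads of Acta1 in 5 libraries at day 3 and 66 in 5 at day 5, against 27 reads in 4 naive libraries. At day 5, 33 of the 66 reads came from replicate 5, and without it the mean per library was 8.25, against 13.2 with it and 6.75 in naive rats.

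Arthritic less healthy rats, both given RTD-1, differed in Acta1 by -1.33 at day 3 (SE 1.05, 95% interval -3.44 to 0.78, limma adjusted p = 0.306), where 47.4% of genes were called, and by -1.29 at day 5 (SE 1.05, 95% interval -3.40 to 0.82, limma adjusted p = 0.325), where 44.3% were called. The day 3 result depended on replicate 3. Without it the difference was -2.45 (SE 0.82, limma adjusted p = 0.0118), and 47.0% of all genes were called in that fit. Without replicates 3 and 6 it was -3.17 (SE 0.76). These libraries hold the highest Acta1 values of the arthritic arm and were left out for that, after the data had been seen, so the larger differences follow in part from the choice and their p-values are not evidence of a difference. Depth moved with this comparison as well, since 4 arthritic libraries at 0 had limits of 3.91 to 6.61 normalized reads for a count of 0, against a lowest healthy value of 4.66. With deeper libraries thinned to 1500000 reads, the difference with all libraries was -1.12 (SE 1.15, limma adjusted p = 0.452, 44.2% of genes called). With replicate 3 also left out, it was -2.24 (SE 0.94, limma adjusted p = 0.0471, 44.0% of genes called), under the same reservation. The thinning was a single random draw. Replicates 6 and 8 of the arthritic arm, with 464693 and 935255 reads in genes, stayed shallower, so depth was not made equal. The call of Acta1 in these fits is read against those shares of all genes called.

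**Figure D4:**
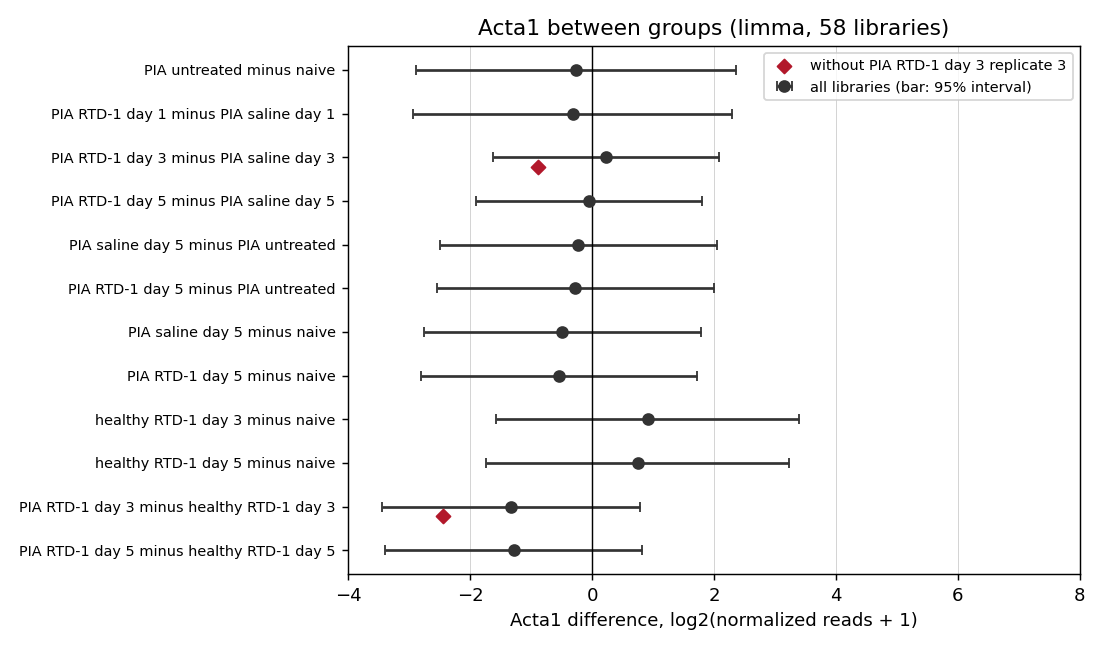
Difference in Acta1 on the log2(normalized reads + 1) scale (horizontal axis) for 12 comparisons of 2 groups. Points are limma estimates, bars their 95% intervals from a spread pooled over all groups, and diamonds the estimates without day 3 RTD-1 replicate 3. Every bar spans 0, and the diamonds lie at -0.89 for RTD-1 less saline and -2.45 for arthritic less healthy at day 3.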

How the data were processed

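The 58 libraries were made from total RNA with a strand-specific kit and read as single 75 nt reads on a NextSeq 500, per the labels' protocols. The submitters' processing notes name HISAT and DESeq, with no version; genome build, annotation and counting rule are not given in the sources used. The table deposited by the authors holds log2 values, each a whole read count over a factor for its library (1.71 to 17.5 megareads), with 0 reads entered as 0.9 of a read, as the values themselves show. Whole reads were recovered for 100% of values above 0, within a relative tolerance of 0.001. A row without an identifier, with 0.000384% to 0.0137% of reads, was left out. The design had assumed normalized reads, so the logarithm was undone first.

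Normalized reads are reads scaled to the median factor, 5.75 megareads. Genes reaching 10 normalized reads in 4 or more libraries were tested with limma 3.58.1 in R 4.3.3 on log2(normalized reads + 1), in 1 fit of 10 group means with trended, robust moderation and two-sided Benjamini-Hochberg adjustment over 13062 genes. The scripts were tested on simulated data. Sample titles gave the groups and replicate numbers. Within groups, each of the 156 pairs of libraries differed beyond sampling noise (lowest chi-square per degree of freedom 2.48, over genes with 10 or more reads). The named genes were the 3 muscle genes and the 2 genes most like them in group-centred level; 6 had been chosen, but without names only the first 2 are printed. The members, lists and tests were chosen with earlier results of these data known. Lists of other muscle, joint and blood markers were not analysed here, because identifiers could not be paired with names. Exact binomial intervals are at 95%, and a count of 0 was given a limit of 3 reads; both cover counting error only.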

Additional observations from a re-analysis of the deposited data

Results flagged for a closer look

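In groups of 4 to 10 libraries, the highest or lowest library was marked where its gap to the nearest other was large against the group's range (Dixon's 95% limit). This held in 14 of 27 pairs of a gene and a group, and 10 of the 14 rest on at most 10 reads. For continuous values chance marks about 1 in 20, but that rate does not hold for counts as low as these. In 7 of the 14 all other libraries of the group were at 0, so that any read, in 2 cases a single one, was marked by construction.

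In the day 3 RTD-1 arthritic group, replicate 3 stood apart for all 3 genes, at 1251 normalized reads of Acta1, 110.4 of Ckm and 672.0 of Mb. Acta1 was also marked in replicate 1 of the day 3 saline arthritic group, at 27.4 normalized reads, and in naive replicate 2, the lowest of its group, at 0. Ckm was marked in replicate 8 of the day 5 RTD-1 arthritic group at 2.17, in replicate 7 of the day 5 saline arthritic group at 5.53 and in untreated arthritic replicate 4 at 3.84 normalized reads. Mb was marked among arthritic rats in day 1 RTD-1 replicate 1 at 2.18, day 5 RTD-1 replicate 1 at 3.42, day 3 saline replicate 2 at 0.933, day 5 saline replicate 3 at 0.995 and untreated replicate 3 at 2.23 normalized reads. Mb was marked in naive replicate 2 at 1.92 normalized reads. In each of the groups marked for Mb other than day 3 and day 5 RTD-1, the marked library was the only one with a read.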

How the results depend on the processing

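Acta1 was not called in 14 of 15 comparisons under any setting run. For arthritic less healthy RTD-1 rats at day 3 the number of the 3 genes called was 0 with all libraries. It was 1 with replicates 5 to 8 only (-2.39, limma adjusted p = 0.0417), where 47.9% of all genes tested were called. With replicates 1 to 4 only it was 0 (-0.27, limma adjusted p = 0.888), where 40.3% were called. It was 1 without replicates 3 and 6, where 44.3% of all genes tested were called. With thinned reads and no replicate 3 it was also 1, where 44% were called. When single libraries were left out it was 0 to 1. A call in these fits is read against those shares. Thinning and the removal of both libraries were chosen after seeing the data, and replicates 3 and 6 were singled out for their high values. A filter of 50 normalized reads left Acta1 untested. With no filter (16879 genes), the lowest adjusted p by limma was 0.0631 for Ckm (-1.61, day 5 RTD-1 arthritic less healthy) and 0.145 for Mb (2.15, day 3 healthy RTD-1 less naive). Depth limits Ckm and Mb, which had at most 3 reads in 47 and 46 of 58 libraries.

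The sign of Acta1 differences that were not called changed with some settings, and the cause was not tested. RTD-1 less saline at day 3 was -0.11 with a pseudocount of 0.5, -0.22 with array weights, -0.93 with replicates 5 to 8 only, -0.029 without the deeper saline libraries, -0.83 with thinned reads and no replicate 3 and -1.61 without replicates 3 and 6. At day 5 it was 0.0059 with a pseudocount of 0.5 and 0.0028 with replicates 5 to 8. Array weights gave 0.14 for day 5 RTD-1 less untreated arthritis, 0.37 for day 5 saline less untreated arthritis, 0.074 for day 5 saline less naive, -0.046 for the RTD-1 difference at day 3 less day 1 and -0.057 for day 5 less day 1. Replicates 5 to 8 gave 0.044 for day 5 RTD-1 and 0.041 for day 5 saline less untreated arthritis, -0.61 for day 3 less day 1 and 0.93 for day 5 less day 3. Day 3 less day 1 was -0.56 with thinned reads and no replicate 3 and -1.30 without replicates 3 and 6. Day 5 less day 3 was 0.12 with a pseudocount of 0.5, 0.78 with thinned reads and no replicate 3, and 1.57 without replicates 3 and 6. Day 5 less day 1 was -0.034 with voom. Beside these 23 values, 157 kept both sign and side of the threshold and 3 passed it.

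With single libraries left out, RTD-1 less saline ran from -0.72 to 0.10 at day 1, -0.89 to 0.59 at day 3 and -0.39 to 0.13 at day 5. Untreated arthritis less naive ran from -1.23 to 0.61, day 5 RTD-1 less untreated arthritis from -1.15 to 0.22, and day 5 saline less untreated arthritis from -1.10 to 0.27. Healthy RTD-1 less naive ran from -0.051 to 1.28 at day 3 and -0.22 to 1.2 at day 5, and arthritic less healthy RTD-1 from -2.45 to -0.98 at day 3. The differences of RTD-1 differences ran from -0.58 to 0.94 (day 3 less day 1), -0.64 to 0.84 (day 5 less day 3) and -0.15 to 0.67 (day 5 less day 1). Of the 12 correlations, 0 to 4 passed; the 4 came without replicate 3 or 7 of the day 5 saline group, where fewer correlations were defined.

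Correlations of same-numbered libraries ran from -0.101 to 0.277. Differently numbered libraries were not set beside them, so whether replicate numbers pair the libraries was not tested. With the replicate block, Acta1, the only 1 of the 3 genes tested, was not called in any comparison. Its difference for arthritic less healthy RTD-1 rats at day 3 was -1.31.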
